A study of Homo sapiens with 3 samples.

Results

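CYP24A1, the mitochondrial enzyme that starts the breakdown of active vitamin D, and 7 further genes that make, carry or sense vitamin D were followed on arrays of Huh7, a long-established human hepatoma cell line. The 8 genes were VDR, RXRA, RXRB, CYP27A1, CYP27B1, CYP2R1 and GC beside CYP24A1, out of 19740 gene symbols named on the arrays. Their probes were found through the RefSeq accession printed for each spot, which gave 9 of 34127 gene probes and 18 of 43118 gene spots. CYP24A1 had 2 probes, the VDR probe was printed 10 times, and every other gene had 1 probe with 1 spot. The set was chosen from the measured rise of both CYP24A1 probes at CA (100 μM), so that this rise is described here and supports nothing. Probes listed for the other 7 genes were kept whatever their values.

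The samples were Huh7 cells without treatment and Huh7 cells given 50 or 100 μM of the plant polyphenol chlorogenic acid (CA) for 24 h. Per the paper, CA came from a stock in DMSO and its untreated controls received DMSO as vehicle. The label of the untreated sample gives no treatment and names no vehicle. All 3 groups grew in DMEM with fetal calf serum and antibiotics, and none carried a transgene or knockdown per the labels. The study asked if CA makes tumor cells differentiate, and the comparisons ask which transcripts differ under each dose. Every group is represented by 1 one-colour Agilent array of Cy3-labelled RNA, so that there was no replicate, no test was possible and each difference given is one between 2 arrays. In RNA from whole cultures, fewer cells with a transcript and less of it per cell cannot be told apart.

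Vitamin D reaches the liver bound to the plasma carrier encoded by GC. Hepatocytes add the first hydroxyl group, mainly through CYP2R1 and also through mitochondrial CYP27A1, and CYP27B1 adds the next, chiefly in the kidney, to give calcitriol. Calcitriol binds the vitamin D receptor (VDR), which pairs with a retinoid X receptor (RXRA or RXRB) and switches on genes that hold its response elements. CYP24A1 is the best known of these genes in many cell types and closes a feedback loop by degrading calcitriol. Hepatocytes are known for a low level of VDR.

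A VDR and RXR dimer reads a direct repeat of 2 hexamer half-sites 3 bases apart, and the RefSeq promoter windows at hand show where such letters lie in front of the genes. Windows of 250 bases before to 50 bases after a start site (GRCh38.p14) were matched for 4 of the 8 genes, RXRA, RXRB, CYP27A1 and CYP2R1, with 8 windows in all, while CYP24A1, VDR, CYP27B1 and GC were not matched. The 2 windows shown belong to the enzymes of the first hydroxylation and were picked because each holds 2 half-sites, more than the other windows. Capitals mark the half-sites on either strand, and the stretch shown is the 250 bases before the start site.
CYP27A1 promoter, chr2:218781897-218782146, plus strand: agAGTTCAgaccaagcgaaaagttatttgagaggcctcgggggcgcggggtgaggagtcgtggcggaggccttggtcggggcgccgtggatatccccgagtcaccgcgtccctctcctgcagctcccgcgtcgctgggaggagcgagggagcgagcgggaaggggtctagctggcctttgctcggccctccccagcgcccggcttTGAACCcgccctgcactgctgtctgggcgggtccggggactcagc
CYP2R1 promoter, chr11:14892444-14892693, minus strand: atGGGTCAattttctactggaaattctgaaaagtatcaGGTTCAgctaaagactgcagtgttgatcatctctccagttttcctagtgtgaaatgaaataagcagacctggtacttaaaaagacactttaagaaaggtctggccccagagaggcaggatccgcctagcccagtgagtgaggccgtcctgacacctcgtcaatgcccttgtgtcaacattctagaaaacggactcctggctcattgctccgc
The half-sites searched were AGGTCA, its variants AGTTCA and also GGGTCA, and the variant GGTTCA, on both strands, none of which overlapped in the windows shown. One or more of them lay in 4 of the 8 windows, against 38.6% of all 35116 windows of the same length. A pair in the same orientation 3 bases apart lay in none of the 8, and in 0.0740% of all windows. Over the lists of vitamin D genes described below, 34 of 91 windows held a half-site and none held the pair. With so low a share over all windows, its absence from these few does not set any of these genes apart. Other forms of the hexamer were not searched. Half-sites of these letters also serve other nuclear receptors, so that a match describes the sequence and names no site of VDR.

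The brighter CYP24A1 probe (A_23_P28815) read 50.4 intensity units in untreated cells, 40.2 at CA (50 μM) and 349 at CA (100 μM), where an intensity unit is the deposited spot signal after background subtraction. The CA (100 μM) array was thus the high one, and the untreated and CA (50 μM) values lay much nearer to each other. Feature Extraction, the scanner software, gave these readings error estimates of 5.95, 5.12 and 35.1 units, which cover the spot alone. Raw spot medians told the same order, with 103, 97.0 and 362 units over local backgrounds of 26.0, 28.5 and 29.0.

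For comparison between arrays each signal was divided by the 75th percentile of its array, 1059 units for untreated cells, 1207 for CA (50 μM) and 1249 for CA (100 μM). On this scale the brighter CYP24A1 probe was 5.87-fold higher at CA (100 μM) than in untreated cells, a log2 ratio of 2.55. Compared with CA (50 μM) it was 8.38-fold higher, a log2 ratio of 3.07. At CA (50 μM) its log2 ratio to untreated cells was -0.52, which is 1.43-fold lower. Probes printed 10 times that read 25 to 100 units when untreated showed a typical spread (median SD) among their own spots. It was 0.14 in each comparison with untreated cells and, like the error estimates above, covers the spots alone. The CA (100 μM) difference was many times that spot error, and the CA (50 μM) difference was between 3 and 4 times it. The spread between cultures was not measured. At CA (50 μM), the 2517 probes within 0.5 log2 units of the untreated CYP24A1 level had ratios with an SD of 0.40. Of these, 161 had a lower ratio than CYP24A1.

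The dimmer CYP24A1 probe (A_33_P3369401) read 7.62 units in untreated cells, 2.75 at CA (50 μM) and 35.1 at CA (100 μM). Feature Extraction called the signal well above background at CA (100 μM) only, so that the other 2 readings set a limit and not a level. Its raw spot medians were 71.0, 63.0 and 105 units over local backgrounds of 29.0, 28.0 and 30.0. The floor taken was the lowest signal of any probe well above background, 12.2 units on the untreated and 12.5 units on the CA (50 μM) array. Against it the probe was at least 2.44-fold higher than in untreated cells and at least 2.70-fold higher than at CA (50 μM). Some probes below background read above this floor (CALB1, 15.2 units in untreated cells), so that both bounds hold for this floor only. Both CYP24A1 probes therefore had their highest value at CA (100 μM), as the choice of the gene required. The plot of processed signals shows both CYP24A1 lines bending upwards at CA (100 μM) beside the flatter lines of the other genes.

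**Figure D1:**
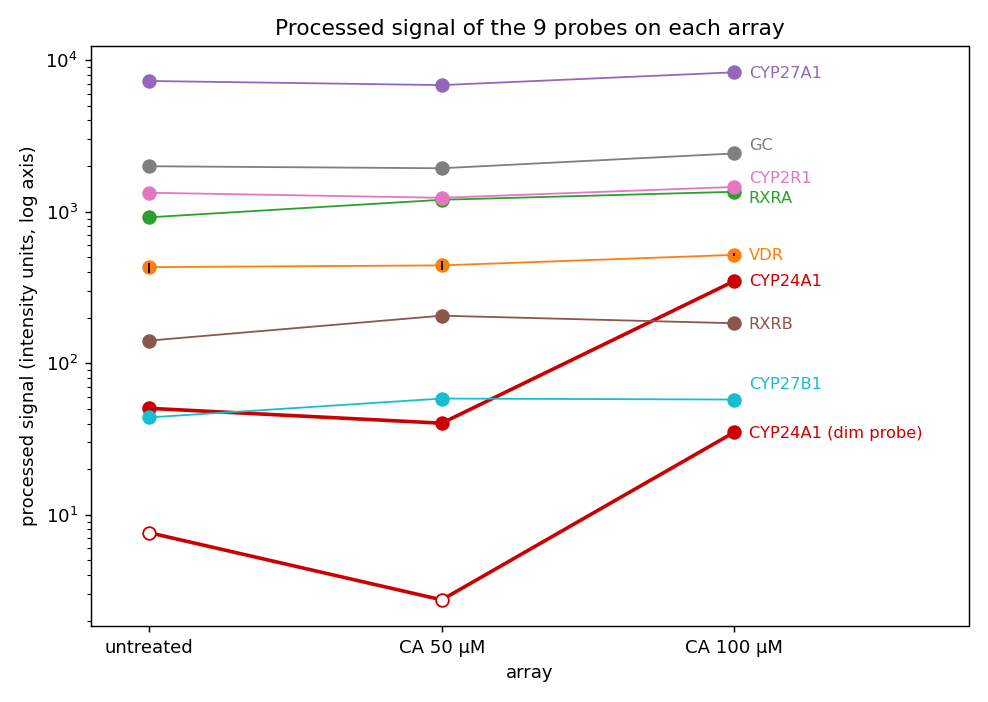
Processed signal in intensity units (log axis) of the 9 probes on the 3 arrays, each point 1 array; open points are not well above background, and the black bars on VDR run from its lowest to its highest spot. The brighter CYP24A1 probe goes from 50.4 and 40.2 to 349 units, while CYP27A1 stays between 6834 and 8298.

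Fold changes of at least 2 were uncommon in each comparison. At CA (100 μM) against untreated cells, 0.638% of the 22267 probes well above background on both arrays were higher by 2-fold or more (142 probes) and 0.256% were lower by as much (57 probes). Among the 8 measured probes of the vitamin D handling genes, 1 was higher by this rule, the CYP24A1 probe the set was chosen on, and 0 were lower. At CA (50 μM) the shares over 22471 probes were 0.614% higher and 0.458% lower, and 0 of the 8 probes passed in either direction. Between the doses, 0.681% of 22453 probes were higher at CA (100 μM) by that fold and 0.174% lower, and CYP24A1 was again the 1 probe of the set that passed.

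The size of the CYP24A1 ratio can be placed among all probes as a description. At CA (100 μM) against untreated cells, 1 of 22267 probes had a higher ratio, a probe of PRP4K. It went from 3418 to 693983 units and carried a background flag (uneven or outlying background) on the CA (100 μM) array. Between the doses, 2 of 22453 probes were above CYP24A1, the same PRP4K probe and one for the keratin pseudogene KRT16P2 with 88.8, 25.6 and 285 units. Of the 2515 probes within 0.5 log2 units of the untreated CYP24A1 level, 10 were higher by 2-fold or more at CA (100 μM), and 25 were lower by as much. The SD of the ratios of these probes was 0.36, and none had a ratio above that of CYP24A1.

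The CA (100 μM) array had a long band of spots on which dim probes read too bright. Windows of 17 rows by 7 columns of spots were called disturbed where 5 or more dim-probe spots, making up 25% or more of them, were 4-fold or more brighter than on the other arrays. Such windows held 5.67% of the gene spots at CA (100 μM), 0.118% at CA (50 μM) and 0.139% in untreated cells. Outside them the share of probes at least 2-fold higher fell to 0.238% of 20970 against untreated cells and to 0.236% of 21147 between the doses. Of 11105 probes without such a signal in untreated cells, 3.46% rose at CA (100 μM) to a bound of at least 2-fold, as the dimmer CYP24A1 probe did, and outside the disturbed areas 0.409% of 10513 did so.

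Neither CYP24A1 spot lay in a disturbed area. The brighter probe sat in row 400 at the edge column 1, where 0 of 14 dim-probe spots around it were bright, and the dimmer one in row 441 and column 57, where 0 of 34 were. In the windows around the 2 spots the median log2 ratio of CA (100 μM) to untreated was -0.04 and -0.09, and the highest ratio of another probe was 0.87 and 0.79. Neither spot carried a background flag or was saturated on any array. No spot of the other 7 genes was in a disturbed area either, although 1 of the 10 VDR spots lay at the border of the band with 5 of 29 dim-probe spots bright. The map of the array shows these positions.

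**Figure D2:**
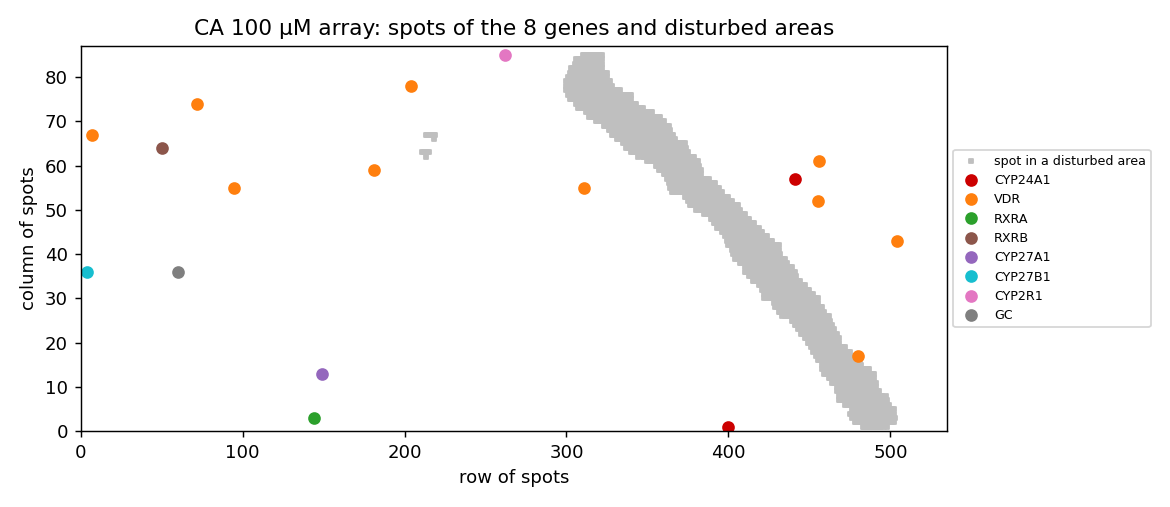
Position by row and column of spots on the CA (100 μM) array of the 18 spots of the 8 genes (coloured points, CYP24A1 in red) and of the spots in disturbed areas (grey). The band crosses the array at an angle, with the CYP24A1 spot of row 400 below it and that of row 441 above it, and 1 VDR spot at its border.

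VDR, the receptor of calcitriol, was well above background on every array, at 430 units in untreated cells, 442 at CA (50 μM) and 518 at CA (100 μM). Its unflagged spots ranged from 394 to 457 units (n = 10 spots), from 410 to 473 (n = 9) and from 506 to 534 (n = 9). The CA (100 μM) spots were the highest before scaling, but that array was also brighter as a whole. After scaling, CA (50 μM) gave a log2 ratio of -0.15 with an SD between spots of 0.048, and CA (100 μM) gave 0.03 with an SD of 0.060 (n = 9 spots each). The first of these is about 3 times the spot SD, and the second is within it. The spots of a ratio share the same 2 arrays, so that their SD covers no difference between arrays or cultures. At CA (50 μM), 646 of 2475 probes within 0.5 log2 units of the untreated VDR level had a lower ratio, with an SD of 0.32. Between the doses the ratio was 0.18 with a spot SD of 0.047. VDR thus stayed within 1.13-fold between any 2 arrays.

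The retinoid X receptors are the dimer partners through which VDR binds DNA. RXRA read 917, 1197 and 1352 units in untreated cells and with CA (50 μM) and CA (100 μM). Its log2 ratios to untreated cells were 0.19 and 0.32, so that both doses were higher than the untreated array by up to 1.25-fold. At CA (100 μM), 1837 of 22267 probes had a higher ratio than RXRA. Among the 2517 probes within 0.5 log2 units of its untreated level, 63 had a higher ratio, and the ratios of these probes had an SD of 0.17. RXRB read 141, 206 and 183 units, its ratios were 0.36 for CA (50 μM) and 0.14 for CA (100 μM), and the CA (50 μM) array was the highest. Ratios of 10-spot probes of similar brightness had a median spot SD of 0.070 for the lower and 0.068 for the higher dose. The RXRB difference was about 2 times that spot error at CA (100 μM) and about 5 times at CA (50 μM). Its ratios were ordinary among probes within 0.5 log2 units of its untreated level. At CA (50 μM), 445 of 2447 such probes had a higher ratio, with an SD of 0.36. At CA (100 μM), 709 of 2446 had a higher ratio, with an SD of 0.28.

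Enzymes that activate vitamin D differed by less than 1.25-fold from untreated cells after scaling. CYP27A1, which also acts in bile acid synthesis, had the brightest probe of the set at 7275, 6834 and 8298 units, and its log2 ratios to untreated cells were -0.28 for 50 μM and -0.05 for 100 μM. CYP2R1, the main enzyme of the first hydroxylation, read 1332, 1233 and 1455 units, with ratios of -0.30 and -0.11, and its spot was flagged for uneven background on both CA arrays. CYP27B1, which makes calcitriol, read 43.9, 58.4 and 57.6 units, with ratios of 0.22 and 0.15. The CYP27B1 probe was well above background on all 3 arrays but dim, and its 2 ratios were within 2 times the spot SD of 0.14 for probes of that brightness. Neither CYP27A1 nor CYP2R1, whose windows with 2 half-sites are printed above, reached 2-fold in any comparison. At most 0.681% of all probes did so in any direction, and a relation between half-sites and ratios was not tested.

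GC, the plasma carrier of vitamin D and a product of hepatocytes, read 1992, 1932 and 2420 units. Its log2 ratios were -0.23 at CA (50 μM), 0.04 at CA (100 μM) and 0.28 between the doses. The CA (100 μM) array was the highest for GC before scaling and nearly level with untreated cells after scaling. With CYP27A1, CYP2R1 and VDR, GC was lower at CA (50 μM) than on both other arrays after scaling, and none of these 4 probes reached a difference of 1.25-fold.

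Percentiles place each probe among all gene probes of its own array and allow no comparison of RNA amounts between genes. The brighter CYP24A1 probe moved from percentile 47.0 in untreated cells and 42.6 at CA (50 μM) to 65.1 at CA (100 μM). The dimmer one stood at 40.7 at CA (100 μM) and, below background, had no measured place on the other arrays. RXRB went from 57.7 to 59.7 and 58.5, and RXRA from 77.1 to 78.6 and 79.7. The probes of VDR ranged from 67.6 to 69.1, CYP27A1 from 93.9 to 94.6, CYP27B1 from 45.5 to 46.6, CYP2R1 from 79.0 to 81.2 and GC from 83.7 to 85.6.

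**Figure D3:**
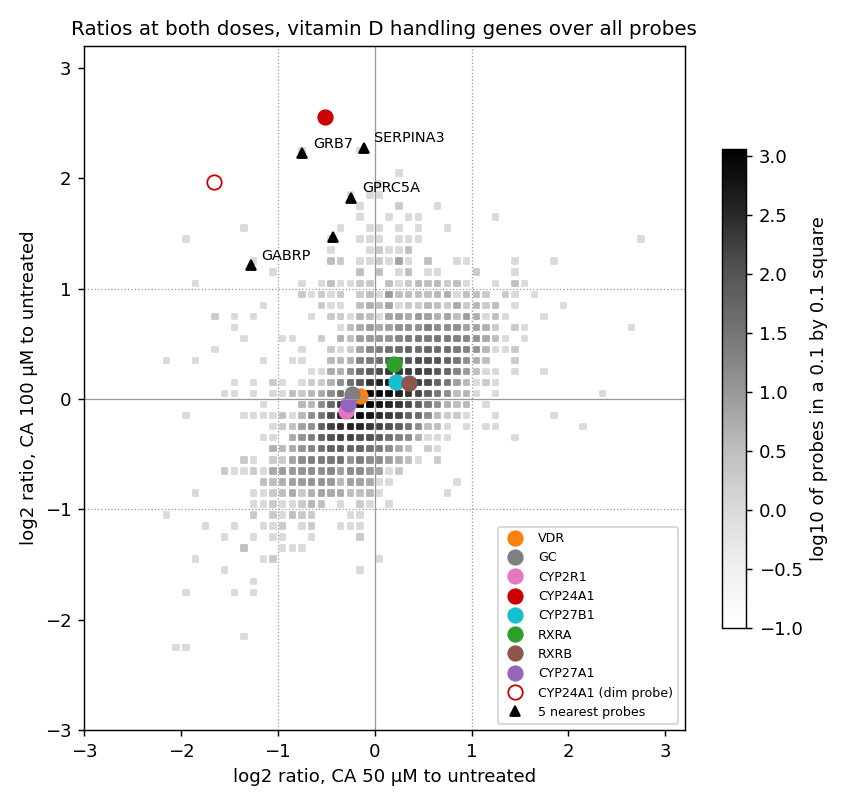
Log2 ratio to untreated cells at CA (50 μM) on the x axis and at CA (100 μM) on the y axis. Grey squares count the measured probes within the axes (the PRP4K probe lies beyond them), and coloured points are the vitamin D handling genes. The open point is the dimmer CYP24A1 probe, whose place is no measured ratio since it was below background without CA and at 50 μM. Triangles are the 5 probes nearest to the mean of both CYP24A1 probes, with all genes of the gene lists left out. CYP24A1 stands at -0.52 and 2.55, and the other 7 genes lie between -0.30 and 0.36 on both axes.

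The probes whose pattern over the 3 arrays was most like that of CYP24A1 were looked up by the Euclidean distance between 2 log2 ratios to untreated cells, one per dose, over 18244 named probes well above background on all 3 arrays. The rule took the mean of both CYP24A1 probes as its target (-1.09 for 50 μM, 2.26 for 100 μM), but this mean holds readings of the dimmer probe that are below background, so that its distances are no measured likeness. The distances given here are therefore from the brighter probe alone, a choice made after the data had been seen. GRB7, an adaptor of receptor tyrosine kinases, was nearest at a distance of 0.40, with 122, 82.8 and 676 units. SERPINA3, an acute-phase protease inhibitor, followed at 0.49 with 43.7, 46.0 and 250 units at 1 of its 2 probes, and GPRC5A, an orphan receptor of the G protein-coupled kind, at 0.78 with 23.3, 22.5 and 97.5 units.

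NAV1 at 0.88 (12.7, 15.3 and 56.0 units, in a disturbed area at 100 μM) and TAS2R50 at 0.94 (21.3, 29.0 and 102 units) came next from the brighter probe. The mean of both probes had in their place the second SERPINA3 probe (147, 124 and 478 units) and GABRP, a subunit of a GABA receptor (160, 75.4 and 439 units), which lay 1.09 and 1.54 from the brighter probe. GRB7 was nearest to either target, while the order of the others depended on the target.

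Each of the 5 probes that the mean of both named, from GRB7 to GABRP, had its highest signal on the CA (100 μM) array, which the measure of likeness favours. At CA (50 μM) the ratios ranged from -0.11 for a SERPINA3 probe to -1.28 for GABRP. None of the 5 lay in a disturbed area, and 0 of the 24 to 34 dim-probe spots around each were bright. The same 5 were nearest to that mean when disturbed areas were left out and 17220 probes remained. The distance covers 2 ratios from 3 arrays and is a description of these arrays.

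Further enzymes, electron donors and uptake proteins of vitamin D stood on the array with 12 of 16 listed genes and 14 probes, of which 12 were measured on all comparisons. None changed 2-fold in any comparison, which over so few probes is near the shares over all probes given above. Their median log2 ratio was -0.15 for CA (50 μM), then -0.12 for CA (100 μM), beside -0.01 and -0.02 over all probes. The 3 brightest probes were those of DHCR7, which turns the precursor of vitamin D into cholesterol (13356, 15355 and 14944 units), DAB2, an endocytic adaptor (4096, 3794 and 4253), and the P450 CYP2J2 (1874, 1887 and 2117). FDX1, the ferredoxin that passes electrons to the mitochondrial P450 enzymes, read 275, 293 and 298 units, and its reductase FDXR read 989, 1043 and 974, and both are named here after their values were seen. The CYP3A4 probe was well above background on no array.

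Relatives of CYP24A1 among the mitochondrial P450 genes numbered 7, of which 5 were measured. CYP11A1 (31.6, 33.9 and 33.3 units) and CYP27C1 (51.7, 49.6 and 59.1 units at its brighter probe) had log2 ratios between -0.25 and -0.05 at both doses. On no array were CYP11B1 and CYP11B2 well above background. None of the 4 measured relatives other than CYP24A1 passed 2-fold, which is near the shares over all probes.

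Cofactors of VDR were all on the array, with 18 genes and 27 probes well above background in each group. None of the 27 probes changed 2-fold at either dose or between the doses, a count near the share of at most 0.681% of all probes in any direction. At CA (50 μM), 16 probes had a ratio above 0 and 11 below, with a median of 0.15 (over all probes 10825 above, 11646 below and a median of -0.01), and at CA (100 μM) 18 were above and 9 below, with a median of 0.08 (over all probes 10072 above, 12195 below and a median of -0.02). The brightest probes were those of PDIA3, a protein disulfide isomerase (10098, 14240 and 11869 units), the remodelling ATPase SMARCA4 (7572, 7953 and 9104) and TRIP12, a ubiquitin ligase (7491, 7460 and 8666). The ends of the range, picked after their values were seen, were the coactivator NCOA3 with 0.36 and 0.79, whose spot lay in a disturbed area at CA (100 μM), the acetyltransferase EP300 with 0.63 and 0.59, and 1 of 2 probes of the corepressor HR with -0.59 and -0.58. The other HR probe had 0.20 and -0.10, so that the 2 probes of this gene differed in sign at CA (50 μM).

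Genes known to answer vitamin D in other cell types were listed to see whether they moved with CYP24A1. All 40 were on the array with 51 probes, and 33 genes were measured in each comparison. At CA (100 μM), 0 of 37 measured probes were 2-fold higher and 0 were 2-fold lower, beside 0.638% and 0.256% of all probes, so that the count does not set these genes apart. They had a median log2 ratio of -0.10, beside -0.02 over all probes, and a range from -0.55 to 0.42. At CA (50 μM), 0 of 38 measured probes were 2-fold higher and 1 was 2-fold lower, beside 0.614% and 0.458% of all probes. A single probe does not set these genes apart. It was that of CST6, a cystatin protease inhibitor, which read 234, 119 and 221 units with ratios of -1.17 and -0.32. The CST6 probe was thus low at CA (50 μM) only. The brightest probes were those of SERPINB1 (18579, 19926 and 21385 units), the adhesion protein NINJ1 (10822, 11496 and 12003) and TMEM37 (10610, 9578 and 11677), all with ratios between -0.34 and -0.04.

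Of the 40 response genes, 7 were well above background on no array. The antimicrobial peptide CAMP, the calcium binding proteins S100G and CALB1, THBD, TNFSF11, BMP6 and CYP3A4 made up these 7, named after their values were seen. The calcium channel TRPV6, a textbook target in the gut, had 1 probe of 12.1, 21.6 and 7.71 units that was well above background at CA (50 μM) only and 1 of 21.8, 16.4 and 17.5 units. SPP1, the bone matrix protein osteopontin, read 334, 252 and 429 units, with ratios of -0.60 and 0.12 and a background flag on both CA arrays. CDKN1A, the cell cycle inhibitor p21, read 36.2, 59.3 and 54.7 units, with ratios of 0.52 and 0.36. These 3 genes too were named after their values were seen. A second SEMA6B probe had no unflagged spot at CA (100 μM) and gave no ratio there.

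Systemic regulators of vitamin D and minerals were mostly not above background, with 6 of 9 genes well above background on no array, among them the hormones PTH and FGF23. The FGFR1 probe that was measured read 439, 436 and 472 units, and the phosphate transporter SLC34A1 read 25.6, 30.6 and 28.4. Neither changed 2-fold.

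**Figure D4:**
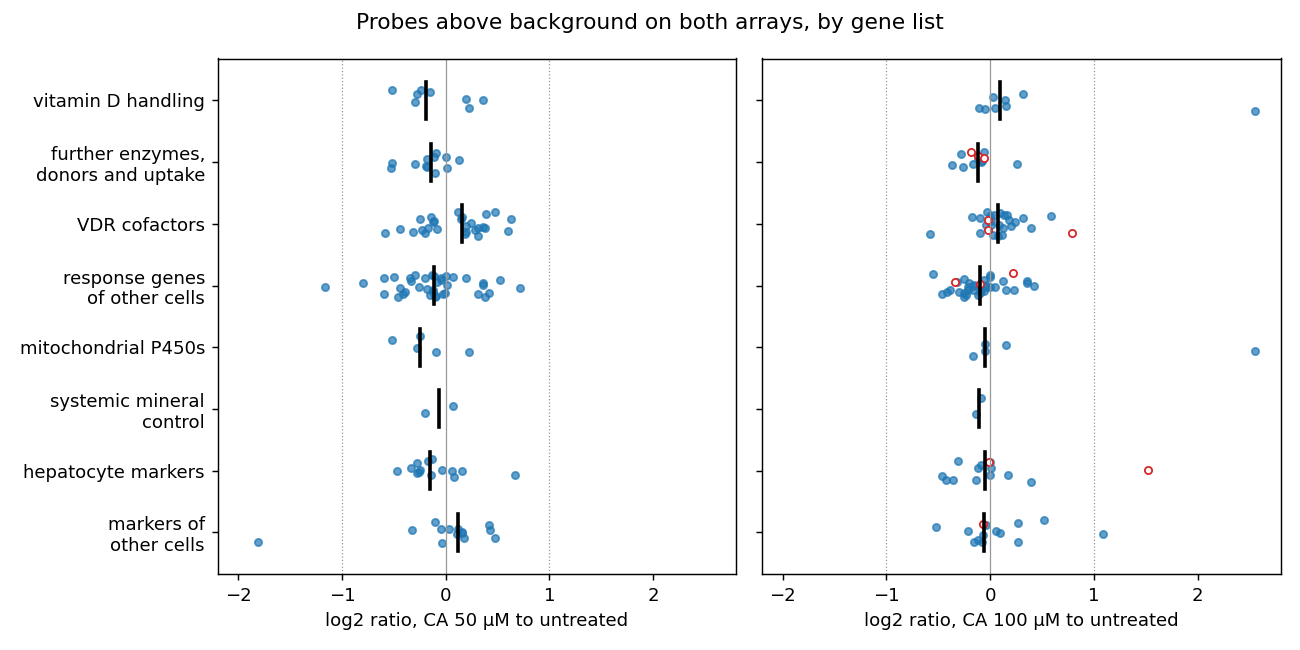
Log2 ratio to untreated cells of every probe well above background on both arrays, by gene list, at CA (50 μM) on the left and CA (100 μM) on the right; black bars are medians and open red points lie in a disturbed area. The CYP24A1 probe at 2.55, chosen for this rise, is plotted with the vitamin D handling genes and with the mitochondrial P450 genes. The other probes of the vitamin D lists lie between -0.58 and 0.79 at CA (100 μM).

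The label of the cells was checked against marker genes. Of 15 hepatocyte markers, 13 were well above background in untreated cells and 14 at each dose, led by ALB (109428, 112826 and 100920 units), AFP (95490, 89739 and 83766) and SERPINA1 (53870, 64742 and 63237). TF had no unflagged spot in untreated cells or at CA (50 μM), and HNF4A was well above background at CA (50 μM) only. TAT, a liver enzyme of tyrosine breakdown, read 20.8, 18.8 and 70.7 units with a log2 ratio of 1.52 at CA (100 μM), where its spot lay in a disturbed area.

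Of 16 markers of blood, endothelial, fibroblast, basal epithelial and kidney cells, 10 were well above background in untreated cells, 11 with CA (50 μM) and 12 with CA (100 μM), with summed signals of 2.89, 2.99 and 3.28 times the 75th percentile of their array. KRT5, DCN, CDH16 and NPHS1 were above it on no array, and besides KRT14 the brightest were CD68, PECAM1 and COL1A2, with up to 698, 610 and 527 units. COL1A1 and a probe of SLC12A1 were above background at CA (100 μM) only, with both spots in a disturbed area and COL1A1 at least 3.59-fold higher than in untreated cells. KRT14, a keratin of basal epithelium, read 306, 99.1 and 765 units, with log2 ratios of -1.81 at CA (50 μM), 1.09 at CA (100 μM) and 2.90 between the doses, outside any disturbed area. KRT14 and CYP24A1 were thus both lowest at CA (50 μM) and highest at CA (100 μM), while KRT5, the partner of KRT14, stayed at 2.68, 3.52 and 3.04 units. The part of such cells in the CYP24A1 values was not tested.

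**Figure D5:**
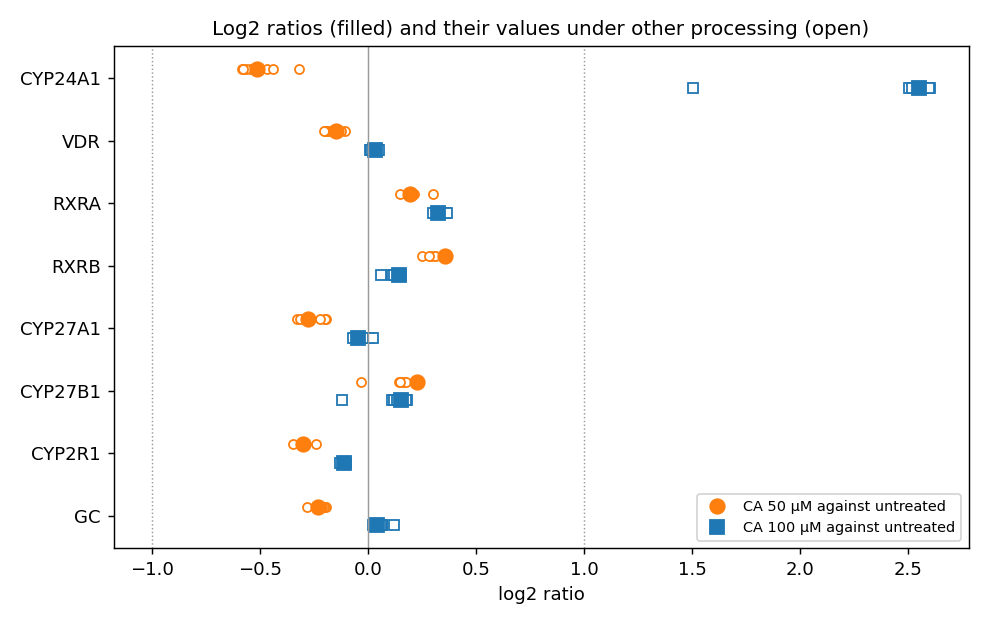
Log2 ratio of 1 probe for each gene at CA (50 μM) (circles) and CA (100 μM) (squares) to untreated cells, with the reported scaling filled and up to 8 other ways of processing open; dotted lines mark 2-fold. CYP24A1 at CA (100 μM) runs from 1.505 to 2.60, and every value of the other 7 genes lies within 2-fold.

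Other processing left the rise of the brighter CYP24A1 probe at CA (100 μM) above 2-fold, with log2 ratios from 1.505 to 2.60 under 8 alternatives. The lowest came from normexp background correction with an offset of 50, which adds the offset to every signal and shrinks the ratios of dim probes most. Under normexp the bound of the dimmer CYP24A1 probe fell from 2.44-fold to 1.196-fold against untreated cells. CYP27B1 turned from 0.22 to -0.03 for CA (50 μM) and from 0.15 to -0.12 for CA (100 μM) under normexp, and CYP27A1 at CA (100 μM) ranged from -0.07 to 0.02, so that no direction holds for these 2 genes there. At CA (50 μM) the brighter CYP24A1 probe stayed below untreated cells in all 8, from -0.59 to -0.32.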

How the data were processed

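RNA of untreated, CA (50 μM) and CA (100 μM) Huh7 cells was hybridised to 1 Agilent array per group. MIHA and miRNA arrays of the study are not analysed here. Images were read by the authors with Feature Extraction 11.0.1.1 (per their processing notes), and the deposited intensity values (arbitrary units) are its background-subtracted, detrended signals with error estimates. A deposited table of log2 values, whose normalization was not given in the sources used here, served as an alternative. The file headers annotate the array on GRCh37, so no gene coordinates are given from it.

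Gene spots without outlier flags were log2 transformed, the 75th percentile of their array was subtracted, and spots of a probe were averaged. A probe was well above background if at least 50% of its spots were. Ratios required this on both arrays, and a probe above it on 1 array only was given as a bound. RefSeq symbols named 25771 of 34127 probes. Named were all probes of the 8 genes, and from each other list the probes changed 2-fold (up to 5) and the 3 brightest. The 5 probes nearest to CYP24A1 among genes outside all lists were named too. Members and lists were chosen with earlier results of these data known. With 1 array per group no p-value was computed, and the precision is limited by the number of arrays. Python 3.11.15, numpy 2.4.6, pandas 2.3.3, matplotlib 3.10.9, R 4.3.3 and limma 3.58.1 were used, and the steps were tested on simulated data.

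Also tried were cyclic loess, quantile normalization, median centring over measured probes, normexp (offset 50, on median spot and background signals without background-flagged spots), the authors' table, other filters, subtraction of local excess or of local median ratios, no disturbed areas or background flags, a fold of 1.5 and the lowest single spot as floor.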

Additional observations from a re-analysis of the deposited data

Results flagged for a closer look

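The brighter CYP24A1 probe had log2 ratios to untreated cells of opposite sign at the 2 doses, 2.55 for 100 μM and -0.52 for 50 μM. At 50 μM, 161 of 2517 probes of similar untreated brightness had a lower ratio, and the SD of their ratios was 0.40. The dimmer CYP24A1 probe was below background in untreated cells and at 50 μM and gave no ratio there. Each dose is 1 array and both ratios share the untreated array, so that the difference between the doses was not tested. The 2 signs were kept under the 8 alternatives, which process the same spots again.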

How the results depend on the processing

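No paired analysis was possible because each group had 1 array, and no replicate could be left out for the same reason. Of the values recomputed, 332 stayed within the spot error or within 1.5 times their count and 69 moved, with no called ratio changing sign. Under normexp the brighter CYP24A1 probe had log2 ratios of -0.32 at CA (50 μM), 1.505 at CA (100 μM) and 1.83 between the doses, and the bounds of the dimmer probe fell to 1.196-fold and 1.47-fold. Over all genes normexp gave 20 higher and 19 lower probes for CA (50 μM), 8 and 9 for CA (100 μM), and 19 and 8 between the doses, and 0 probes of the vitamin D lists lower at CA (50 μM).

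Without a filter on dim probes, 1074 probes were higher and 1050 lower for CA (50 μM), 1360 and 1139 for CA (100 μM), and 1219 and 937 between the doses. Of the 8 genes, 1 probe was then lower for CA (50 μM), and 2 were higher for 100 μM and between the doses, and of the vitamin D lists 1 was higher and 3 lower for CA (50 μM), 3 higher and 2 lower for CA (100 μM), and 2 and 2 between the doses. With the filter on 1 array, 407 were higher and 316 lower for CA (50 μM), 765 and 271 for CA (100 μM), and 739 and 258 between the doses, with 2 probes of the 8 genes higher in the last 2 comparisons and 1 probe of the vitamin D lists lower between the doses.

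At 1.5-fold, 1134 were higher and 487 lower for CA (50 μM), 560 and 400 for CA (100 μM), and 364 and 448 between the doses. The vitamin D lists then had 3 higher and 5 lower for CA (50 μM), 2 higher for CA (100 μM), and 3 and 3 between the doses. With the local excess of dim probes subtracted, 63 probes were higher at CA (100 μM) and 68 between the doses, and without disturbed areas and background flags 44 and 43 were. The cause of each move was not tested beyond what the setting itself removes or adds.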
